A study of Mus musculus with 24 samples.

Results

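Cytosolic ribosomal protein (RP) genes were followed in primary osteoblasts (OBs) cultured from mouse parietal bones. Every gene of the deposited files whose symbol follows the RP pattern was taken. The pattern is *Rpl* or *Rps* with a number and, where present, an a, x or l ending, together with *Rplp0*, *Rplp1*, *Rplp2* and *Rpsa*. It gave 89 of 55335 genes, by symbol alone 53 of the large (*Rpl*) and 36 of the small (*Rps*) ribosomal subunit, pseudogene copies included. Of these, 77 carry the plain symbol of a ribosomal protein and 12 a symbol of a copy (such as *Rpl39l* or *Rps3a2*). *Fau* and *Rack1*, which also encode ribosome components, fall outside the pattern.

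The cultures were wild type (WT) or heterozygous for G610C (Het), a glycine substitution in the triple helix of the procollagen α2(I) chain that *Col1a2* encodes. Both were on the C57BL/6J background and were given osteogenic differentiation conditions, and their RNA was taken 8, 14 or 21 days after seeding. Each genotype has 4 libraries at each day (24 in all). Each preparation mixed the OBs of several pups of one genotype, aged 4–5 days. Wells can therefore share animals, and the p-values below measure the spread between wells and preparations. Gene counts do not separate the alleles of *Col1a2*, and the genotype could not be checked from them.

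The cytosolic ribosome is built from ribosomal RNA and a fixed set of proteins, each needed in about the same number of molecules per particle, and secretory cells such as OBs make large amounts of it. Most vertebrate RP mRNAs start with a cytosine followed by a run of pyrimidines, the 5′ terminal oligopyrimidine (TOP) motif, through which mTORC1 and the RNA-binding protein LARP1 set their translation and stability together. A few RP genes have copies elsewhere in the genome. Some of these, such as *Rpl22l1*, *Rpl39l* and *Rps27l*, encode close relatives of the parent protein, while many others are processed pseudogenes.

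The RNA start sites of members named below are shown because the TOP motif is the feature these genes are best known to share. Each line gives 15 bases before and 15 bases from the RefSeq start (GRCm38.p6), 5′ to 3′ on the strand of the gene, and capitals mark a cytosine at the start followed by at least 4 pyrimidines. The first 5 have such a run and the last 6 do not.
Rpl35, chr2:39005117-39005146 (-): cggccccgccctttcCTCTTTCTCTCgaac
Rps6, chr4:86857353-86857382 (-): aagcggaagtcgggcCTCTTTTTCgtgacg
Rpl38, chr11:114668565-114668594 (+): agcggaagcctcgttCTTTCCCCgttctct
Rplp2, chr7:141447636-141447665 (+): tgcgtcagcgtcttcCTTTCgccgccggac
Rps27, chr3:90213634-90213663 (-): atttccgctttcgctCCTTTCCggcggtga
Rpl13a, chr7:45128731-45128760 (-): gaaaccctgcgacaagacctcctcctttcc
Rplp0, chr5:115559452-115559481 (+): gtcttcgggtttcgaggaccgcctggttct
Rpl10, chrX:74270801-74270830 (+): gttgttacagtggaagataggccgcctata
Rpl22l1, chr3:28805493-28805522 (+): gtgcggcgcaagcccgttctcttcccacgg
Rpl7l1, chr17:46782642-46782671 (-): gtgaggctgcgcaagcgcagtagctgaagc
Rpl39l, chr16:10170213-10170242 (+): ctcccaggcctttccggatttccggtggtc
RefSeq promoters were at hand for 64 of the 89 genes (76 start sites). The run of capitals was found at 18.4% of these starts and at 2.51% of all 32851 starts of the table. Annotated starts can miss the real one by a few bases: a pyrimidine run of 8 or more that opens with C within 10 bases of the start was found at 32.9% of RP starts against 8.11% of all starts, and in *Rpl13a* it begins 2 bases downstream. CCGGAAG, the core bound by GABP and other ETS factors, was present on either strand of the 300 bases from 250 before to 50 after the start in 35.5% of RP promoters and 8.86% of all. AAGATGG, the core bound by YY1, was present in 15.8% and 6.34%, and TATAAA in 10.5% and 13.6%. These letter matches describe the windows and say nothing of binding.

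In every library, RP genes took 3.76% to 7.38% of all counts. The large subunit received 1.37 to 1.45 times the counts of the small one in all 24 libraries, across genotypes and days. Individual RP genes also kept close to a fixed share of the summed RP count: the coefficient of variation of that share over the 24 libraries was 2.38% to 12.1% among the 77 genes with plain symbols (median 5.29%) and under 10% in 75 of them. *Rpl21* (2.38%), a large subunit gene, and *Rps16* (2.44%), a small subunit gene, varied least, and *Rps2* (12.1%) most. Per length of merged exons, the acidic stalk genes *Rplp1* (mean 2787 counts per 1000000 counts of the library (CPM) per kilobase) and *Rplp0* (1135 CPM per kilobase) stood highest. *Rps15a* (79.5) and *Rpl35a* (81.7), whose merged exons are long, were the lowest plain-symbol genes on that scale. Of 10 OB markers 9 were counted in all 24 libraries. The summed level of the 10, mostly from *Col1a1* and *Col1a2*, was 20423 CPM or more, while endothelial markers summed to 2.65 CPM or less.

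Libraries that stand apart touch these genes. Depth was 17140202 to 59734231 counts, and the 6 libraries numbered replicate 1 were the shallowest (17140202 to 25825762). Replicate 1 also had 1.17 to 1.55 counts on named RP pseudogenes per 100 RP counts, against 0.207 to 0.252 in replicates 2 to 4, with no overlap. The other library apart was replicate 2 of Het at day 14, which had the highest RP share of all and the lowest share of mitochondrially encoded counts (0.792%, against 0.897% to 1.75% in the rest). The numbers of RP genes called in Het against WT are given with and without these libraries.

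Expression is given as the relative quantity (RQ), a count relative to the housekeeping genes of its library (the geometric mean of *Sdha*, *Mrfap1*, *Actb* and *Actg1*), the scale the study chose. On this scale the summed RP level was 72.3, 77.8, 84.0 and 74.7 in WT replicates 1 to 4 at day 8 and 74.98, 84.7, 92.6 and 81.0 in Het. At day 14 it was 90.4, 88.1, 88.9 and 85.9 in WT against 98.5, 154.7, 111.1 and 111.0 in Het, so every Het library lay above every WT library. At day 21 it was 103.0, 81.7, 84.6 and 86.1 in WT and 111.9, 89.3, 95.2 and 98.7 in Het, and the genotypes overlapped. Het was higher than WT in each of the 12 pairs that share a day and a replicate number. The ratio of Het to WT was 1.04 to 1.10 at day 8, 1.09 to 1.76 at day 14 and 1.09 to 1.15 at day 21. Ratios of the group means were 1.08, 1.35 and 1.11, and that at day 14 was 1.21 without Het replicate 2. In bulk RNA, fewer cells of a type and less RNA per cell cannot be told apart.

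**Figure D1:**
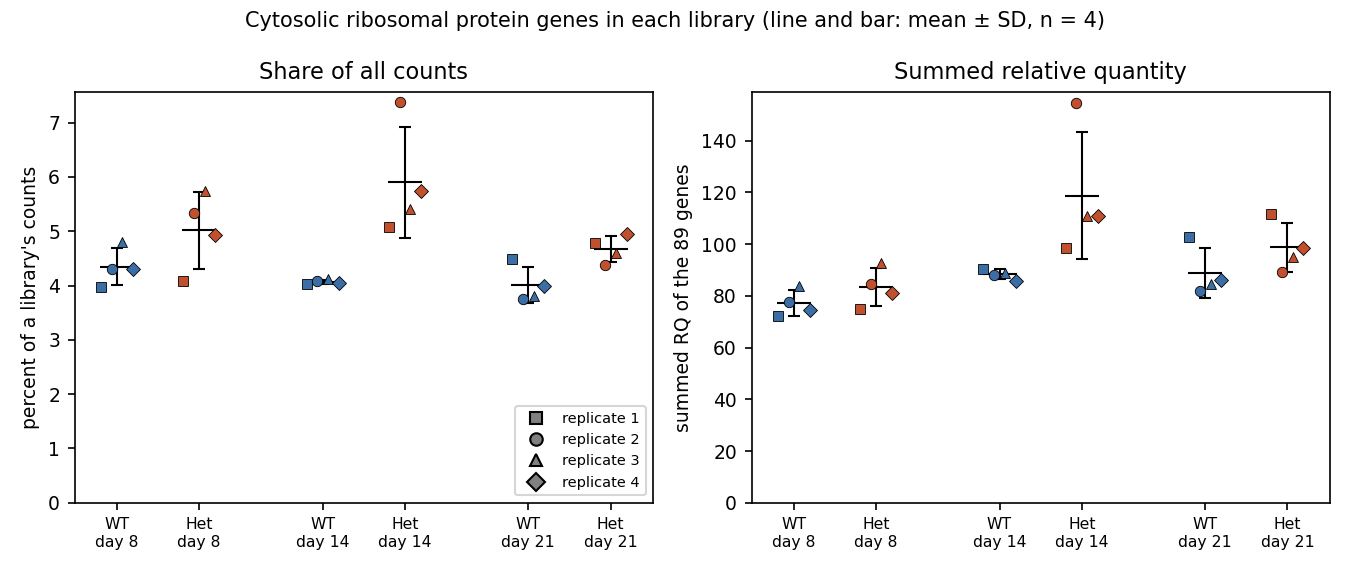
Share of all counts in percent (left) and summed RQ (right) of the 89 cytosolic RP genes in each of 24 libraries, by genotype and day. Marker shapes give the replicate number, and lines with bars the mean ± SD of 4 libraries. The Het libraries of day 14 sit between 98.5 and 154.7 in summed RQ, above the WT libraries at 85.9 to 90.4.

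How RP mRNAs differ with the mutant collagen once matrix is being made is asked by Het against WT at days 14 and 21. Over both days RP genes rose in Het: of 87 tested, 63 rose and none fell (edgeR's quasi-likelihood test, Benjamini-Hochberg adjusted p under 0.05 over 20287 genes), against 7.22% of all genes called higher and 8.05% lower. The median log2 fold change was 0.29 for RP genes and −0.05 for all genes. *Rpl10l*, with 0 counts in every library, and *Rpl3l*, with 40 counts in all, were too low to be tested. All 77 plain-symbol genes had a positive log2 fold change, between 0.15 and 0.39, with a median standard error (SE) of 0.09. Medians were 0.29 for the large and 0.30 for the small subunit genes with plain symbols. Leaving out single libraries gave 41 to 76 genes, the lowest of these without WT day 21 replicate 2, and median log2 fold changes stayed positive. None passed once all libraries numbered 2, 3 or 4 were left out, while 81 passed without those numbered 1. For fits with libraries left out, the share of all genes called was not taken.

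**Figure D2:**
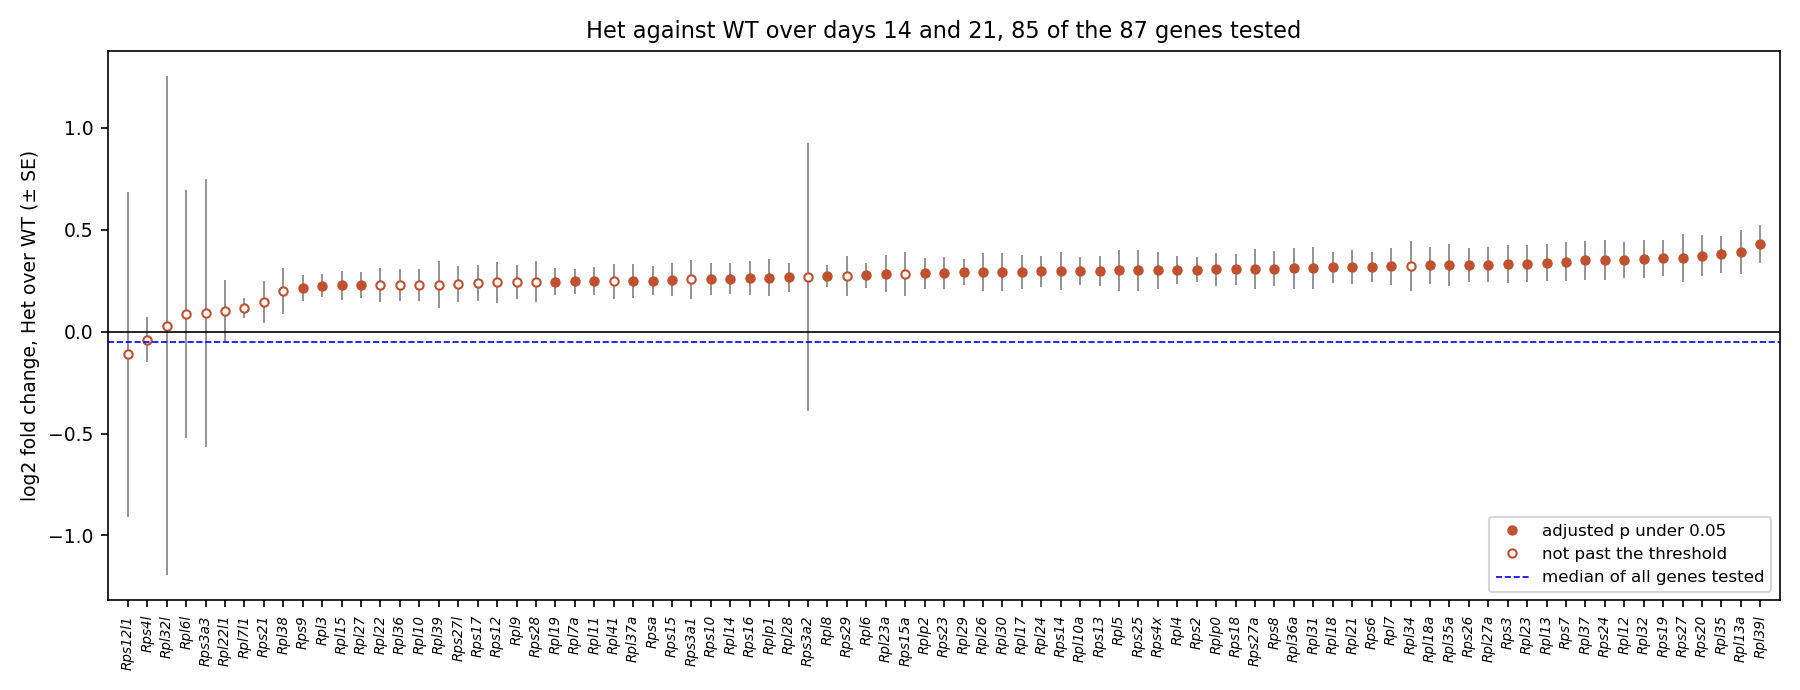
Log2 fold change of Het over WT across days 14 and 21, with SE bars, for 85 of the 87 RP genes tested, ordered by size (16 libraries compared, spread estimated from all 24). Filled points are genes with an adjusted p under 0.05, and the dashed line at −0.05 is the median of all genes. The plain-symbol genes form an even band between 0.15 and 0.39, and the genes at the left end are mostly copies.

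The rise was largest in value at day 14, where 37 of 87 genes rose in Het and none fell, against 1.96% of all genes called higher and 1.54% lower. The medians were 0.42 for RP genes and −0.08 for all genes. With the replicate number as a block 61 genes rose, against 4.37% of all genes: the 37 and 24 more, among them *Rplp1*, *Rplp2*, *Rps3*, *Rps25*, *Rps27*, *Rps27a* and *Rpl27*. With the trimmed mean of M values (TMM) as the scale 64 rose, against 4.66%. Every Het library lay above every WT library for 55 of the 87 genes, which held for 2.17% of all genes.

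*Rpl35*, a large subunit gene near the exit tunnel of the ribosome, had the largest rise among the genes called at day 14 (RefSeq start window above). Its RQ was 0.575, 0.535, 0.540 and 0.533 in WT replicates 1 to 4 and 0.690, 1.09, 0.714 and 0.731 in Het. The Het values all exceed the WT values, replicate 2 most, and the log2 fold change was 0.56 ± 0.13, SE, adjusted p = 0.0272. *Rps20*, a small subunit gene, had 1.26, 1.29, 1.32 and 1.23 in the WT libraries against 1.52, 2.52, 1.76 and 1.74 in the Het libraries, again without overlap (0.56 ± 0.14, SE, adjusted p = 0.0388). *Rpl13a*, known for a second role in silencing inflammatory mRNAs and as a snoRNA host gene (chr7:45125558-45128761, GRCm38), had 1.93, 2.24, 2.33 and 2.18 in the WT libraries against 2.42, 4.42, 2.93 and 2.97 in the Het libraries. Here too the groups were apart (0.55 ± 0.15, SE, adjusted p = 0.0485). *Rpl32*, another large subunit gene, rose as well (0.52 ± 0.13, SE, adjusted p = 0.0394).

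*Rpl11* and *Rpl5* form with 5S rRNA the complex that binds MDM2 when ribosome assembly is disturbed. *Rpl11* had 0.940, 0.934, 0.925 and 0.932 in the WT libraries against 0.953, 1.499, 1.17 and 1.19 in the Het libraries at day 14 (0.37 ± 0.10, SE, adjusted p = 0.0429), so that its lowest Het library lay just above the highest WT one. For *Rpl5* the values were 1.19, 1.17, 1.20 and 1.11 (WT) and 1.24, 2.29, 1.51 and 1.40 (Het), without overlap, but the test was not passed (0.46 ± 0.14, SE, adjusted p = 0.0699, and 0.0519 with the block). *Rps6*, the S6 kinase substrate, rose from 0.709, 0.705, 0.686 and 0.686 in WT to 0.812, 1.22, 0.860 and 0.873 in Het (0.43 ± 0.10, SE, adjusted p = 0.0301). *Rps19*, the gene most often mutated in Diamond-Blackfan anaemia, rose too (0.48 ± 0.13, SE, adjusted p = 0.0412). Over days 14 and 21, *Rps3* (0.33 ± 0.09, SE, adjusted p = 0.0217) and *Rps27a*, which encodes a ubiquitin fusion (0.31 ± 0.10, SE, adjusted p = 0.0419), were called. At day 14 both overlapped between the genotypes, with adjusted p-values by edgeR of 0.0605 and 0.0671, and of 0.0466 and 0.0488 with the block. *Rpl38*, linked to translation of homeobox mRNAs, was among the 15 plain-symbol genes not called over both days: its RQ was 0.531, 0.490, 0.509 and 0.485 in the WT libraries against 0.523, 0.998, 0.605 and 0.580 in the Het libraries at day 14, 0.644, 0.480, 0.497 and 0.521 (WT) and 0.628, 0.460, 0.507 and 0.504 (Het) at day 21. At day 14 replicates 2 to 4 of Het were above all WT libraries and replicate 1 lay among them, at day 21 the genotypes overlapped, and the log2 fold change over both days was 0.20 ± 0.11, SE, adjusted p = 0.242. The others not called included *Rps21* (0.15 ± 0.10) and *Rpl10* (0.23 ± 0.08, adjusted p = 0.0550), which reached an adjusted p of 0.0472 with the block.

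The stalk of the large subunit, where elongation factors dock, is built by *Rplp0*, *Rplp1* and *Rplp2*. At day 14 *Rplp0* had 3.59, 3.58, 3.62 and 3.43 in the WT libraries against 4.84, 5.80, 4.33 and 4.28 in the Het libraries, apart in all libraries (0.44 ± 0.11, SE, adjusted p = 0.0412). Over days 14 and 21 all 3 stalk genes were called, with log2 fold changes of 0.31 ± 0.08, 0.26 ± 0.09 and 0.29 ± 0.08 (SE). *Rpsa*, the small subunit protein also known as the laminin receptor, had 2.97, 2.91, 2.87 and 2.84 in the WT libraries against 3.58, 4.69, 3.48 and 3.45 in the Het libraries at day 14 (0.39 ± 0.10, SE, adjusted p = 0.0405). At day 21 its values were 3.33, 2.71, 2.78 and 2.77 (WT) and 3.56, 2.88, 3.03 and 3.02 (Het), which overlap.

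**Figure D3:**
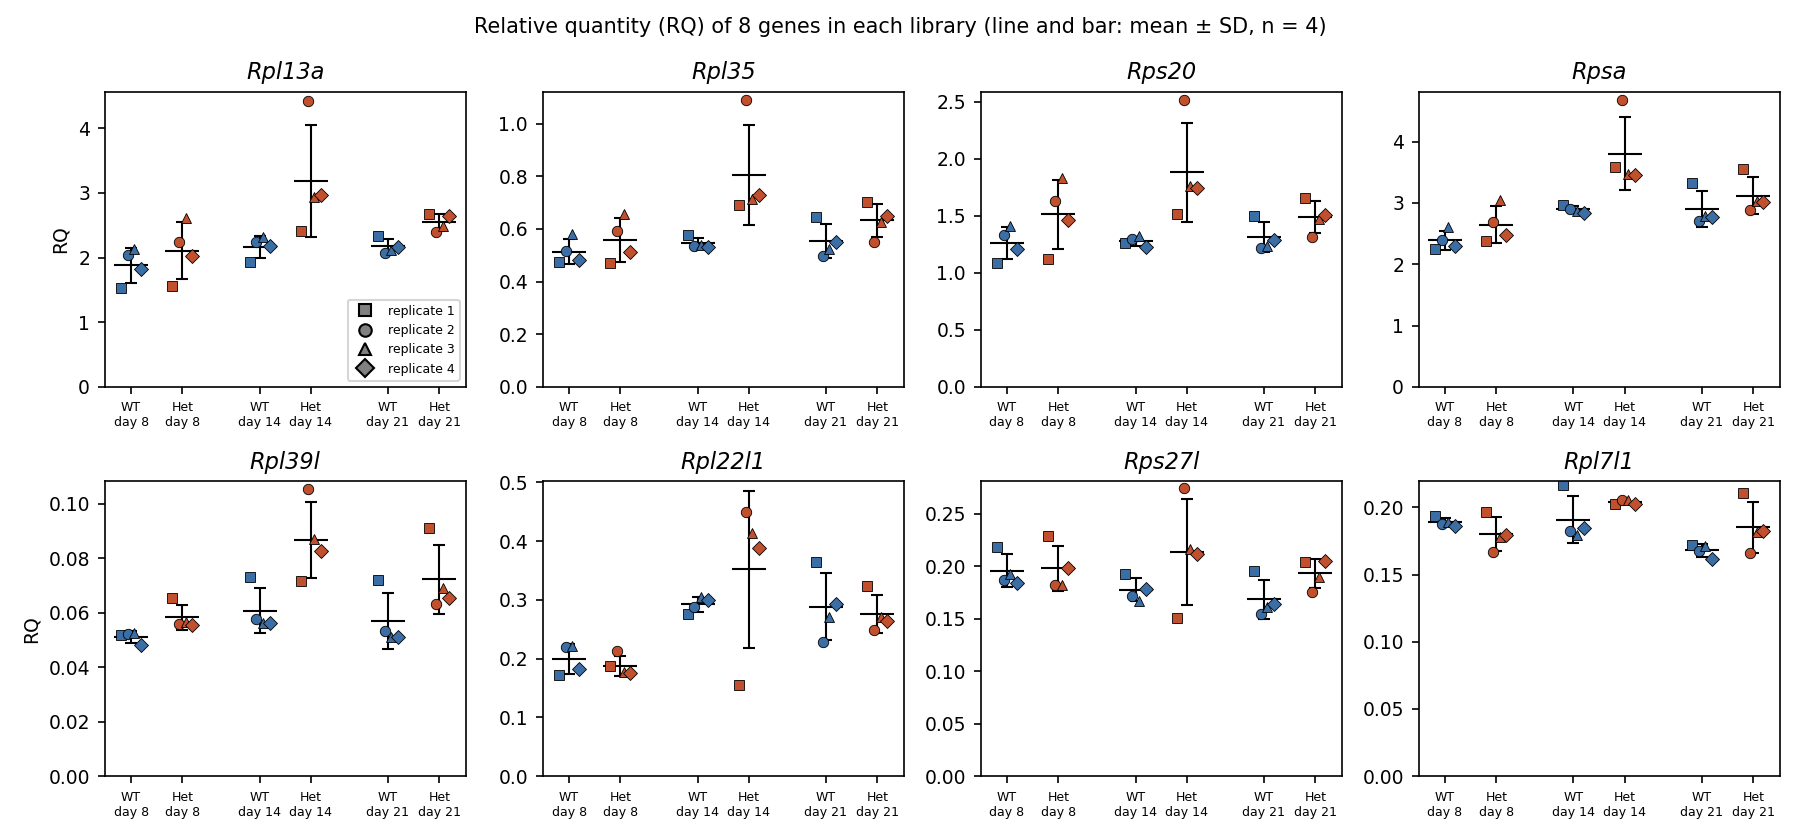
RQ of 4 plain-symbol RP genes (top) and 4 copy genes (bottom) in each of 24 libraries, by genotype and day, with replicate number as marker shape and the mean ± SD of 4 libraries. At day 14 the 4 Het libraries lie above the 4 WT libraries for *Rpl13a*, *Rpl35*, *Rps20* and *Rpsa*, with replicate 2 highest, and the genotypes overlap for all 4 copy genes.

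How many genes were called at day 14 depended on the libraries. Without replicate 2 of Het at day 14 none passed, with a median log2 fold change that stayed positive, and the same held without any one of WT day 14 replicates 2 to 4 or with only the 8 libraries of that day. Without Het day 14 replicate 4, 1 passed. Libraries of the other days enter through the shared spread: 11 to 21 genes passed without WT day 8 replicate 2 or 4, Het day 8 replicate 4, WT day 21 replicate 2, 3 or 4, or Het day 21 replicate 2 or 3. Without replicate 1 of Het, 57, 78 and 56 passed when it was that of day 8, 14 or 21. Leaving out all of replicate 1 gave 81, and leaving out replicate 1 together with Het day 14 replicate 2, a choice made after the data were seen, gave 80 with a median of 0.35. These counts have no share of all genes beside them. Within the replicate 1 pair of day 14 the summed RQ ratio was 1.09, and within pairs 3 and 4 it was 1.25 and 1.29.

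Other cell types and cell states differed between the genotypes at the same days, and their part in the RP result was not tested. Of 12 macrophage and osteoclast markers, 9 were called higher and 1 lower in Het over days 14 and 21, and their summed level was 994 to 2080 CPM in WT and 1671 to 3507 CPM in Het at day 14. *Lyz2*, their most abundant gene, had a log2 fold change of 1.16 ± 0.27 (SE, adjusted p = 0.00727 by edgeR). All 12 had counts in every library. At day 14 the 8 chondrocyte markers summed to 11068, 3788, 3685 and 7168 CPM in WT replicates 1 to 4. In Het they summed to 13605, 901, 1152 and 1559 CPM, higher in replicate 1 and lower in replicates 2 to 4. None was called at day 14 (4 lower with the block). The 10 OB markers summed to 83906, 151184, 154953 and 132261 CPM in WT and 89662, 114137, 102607 and 102152 CPM in Het at day 14. Most of each sum came from *Col1a1* and *Col1a2*, which took 7.34% to 14.6% of counts in WT and 8.07% to 10.6% in Het. The OB marker sums too were higher in replicate 1 and lower in replicates 2 to 4 of Het, with no OB marker called. Over days 14 and 21, where the 63 RP genes were called, 2 of the 10 OB markers were called lower in Het (6 with the block), all 10 log2 fold changes were negative, and their median was −0.48. Of the 8 chondrocyte markers 1 was called lower in that comparison (7 with the block), all 8 values were negative, and the median was −0.77. None of 18 cell cycle genes was called at day 14 or over both days. Muscle, adipocyte and endothelial markers summed to at most 22.6, 222 and 2.65 CPM in any library, and 1 muscle and 1 endothelial marker were called higher over both days.

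At day 8 none of the 87 genes passed by edgeR or by DESeq2, none had an unadjusted p under 0.05, and 0.641% of all genes were called. The median log2 fold change was 0.10, that of all genes was −0.07, and 84 of 87 values were positive. With TMM the medians at day 8 were 0.21 for RP genes and 0.02 for all genes. *Rps20* had the largest value among plain-symbol genes at day 8, 1.09, 1.34, 1.41 and 1.21 in the WT libraries against 1.12, 1.63, 1.84 and 1.47 in the Het libraries (0.26 ± 0.14, SE, adjusted p = 0.569), where replicates 2 to 4 of Het lay above all WT libraries and replicate 1 did not. The lowest Het library exceeded the highest WT one in 3 of the 87 genes, against 1.24% of all genes. Of the 12 macrophage and osteoclast markers 4 were called higher in Het at day 8 and none at day 21. Their summed level at day 21 was still higher in Het, at 3291 to 8190 CPM against 2710 to 3143 CPM in WT, without overlap. At day 21 none passed by either tool, 5 had an unadjusted p under 0.05, and 0.946% of all genes were called. The medians at day 21 were 0.15 and −0.01, 81 values were positive, and groups were apart in 9 genes (7.21% of all genes). With TMM the medians at day 21 were 0.17 and 0.006, so which of days 8 and 21 had the larger RP median depended on the scale. Without replicate 1 and Het day 14 replicate 2, 35 genes passed at day 21 and 5 at day 8, with no share of all genes taken.

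The difference between these effects was tested directly. None of 87 genes differed in its Het effect between days 14 and 21 and day 8 (median difference 0.18, 2 with an unadjusted p under 0.05, 0.177% of all genes called), nor between day 21 and day 14 (median −0.26, 2 with an unadjusted p under 0.05, 0 of all genes called). DESeq2 called none in either. The larger values at day 14 were therefore not shown to differ from those at day 8 or 21, with median SEs of 0.15 and 0.17 for these differences in plain-symbol genes.

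Genes that work with the ribosome were read from lists. Of 22 other TOP mRNAs and ribosome partners, 10 rose and none fell in Het at day 14 (median 0.30, all 22 values positive) and 13 rose over both days, against the 1.96% and 7.22% of all genes given above. They included *Rack1* (0.49 ± 0.12 at day 14), a small subunit scaffold outside the symbol pattern, *Fau* (0.39 ± 0.11), the precursor of another small subunit protein, *Gas5* (0.52 ± 0.14), a snoRNA host RNA with a TOP start, *Npm1* (0.43 ± 0.12), a nucleolar chaperone, and *Eef2* (0.30 ± 0.08), the translocation factor. Of 50 ribosome biogenesis genes, 3 rose at day 14, 7 at day 21 and 22 over both days, and none fell (median 0.14, 0.20 and 0.18). At day 21, where no RP gene was called, *Ddx21*, a helicase of rRNA synthesis and processing, had 0.48 ± 0.08 and *Rrp9*, a U3 snoRNP protein, 0.37 ± 0.07. Of 75 mitochondrial ribosomal protein genes, 3 rose at day 14 and 19 rose and 1 fell over both days, with medians of 0.14 and 0.13. Among 21 regulators of RP mRNA, *Eif4ebp1*, whose product represses cap-dependent translation when mTORC1 is low, was the only one called at day 14 (0.71 ± 0.16, SE, adjusted p = 0.0272), and *Larp1* was not called over both days (0.09 ± 0.05), when 3 of the 21 rose and 1 fell. At day 8 none of the genes of these 4 lists was called.

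**Figure D4:**
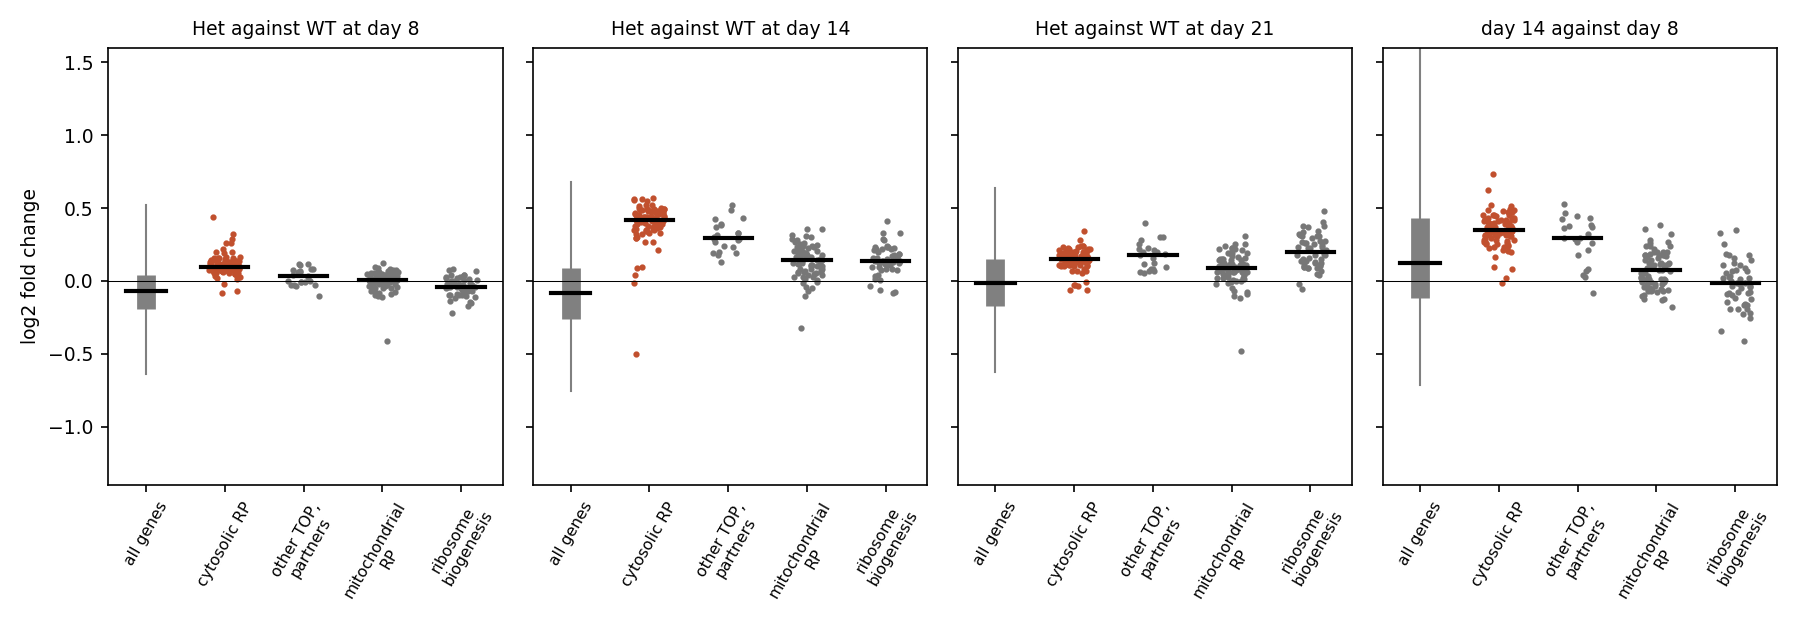
Log2 fold changes of 4 gene groups in Het against WT at days 8, 14 and 21 and in day 14 against day 8. Points are genes, black lines medians, and the grey bar and line of all genes span the middle 50% and 90%. At day 14 the RP median of 0.42 compares with 0.30 for other TOP mRNAs and partners, 0.14 for mitochondrial ribosomal proteins, 0.14 for ribosome biogenesis and −0.08 for all genes.

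During maturation, RP genes rose between day 8 and day 14 on the housekeeping scale: 77 of 87 were called higher and none lower, averaged over genotypes, against 34.3% of all genes called higher and 13.6% lower. The median was 0.35, and that of all genes was 0.12. The size of this rise depends on the scale. With TMM 28 were called higher, against 23.7% of all genes, with medians of 0.19 and −0.02. On total counts 7 were called higher and 4 lower, with a median of 0.07, and the share of all genes called was not taken. The 4 housekeeping genes had a geometric mean of 544 to 629 CPM at day 8 and 446 to 517 CPM at day 14. In WT the mean share of counts taken by RP genes was 4.35% ± 0.34 at day 8 and 4.07% ± 0.037 at day 14 (SD, n = 4), while their summed RQ rose from 77.2 ± 5.06 to 88.3 ± 1.88. In Het the mean share rose instead: at day 14 it was 1.18 times that at day 8, against 0.936 times in WT. The Het shares in replicates 1 to 4 were 4.08%, 5.33%, 5.73% and 4.93% at day 8. At day 14 they were 5.07%, 7.38%, 5.42% and 5.73%, so that replicate 2 rose most and replicate 3 fell. The mean summed RQ at day 14 was 1.43 times that at day 8 in Het and 1.14 times in WT, all libraries included. The Het ratio rests in part on replicate 2, with a summed RQ of 84.7 at day 8 and 154.7 at day 14. All 18 cell cycle genes fell over the same interval, and 11 of 12 macrophage and osteoclast markers rose.

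*Rpl10*, which joins the large subunit last and is X-linked, rose in both genotypes: it had 1.36, 1.30, 1.43 and 1.29 in the WT libraries against 1.45, 1.39, 1.38 and 1.38 in the Het libraries at day 8, 1.75, 1.74, 1.73 and 1.74 (WT) and 1.83, 2.90, 2.06 and 2.13 (Het) at day 14. Every day 14 library was above every day 8 library in both genotypes (0.52 ± 0.08, SE, adjusted p = 1.34e-05). *Rpl5* (0.51 ± 0.10, SE, adjusted p = 0.000249), *Rps28* (0.50 ± 0.10, SE, adjusted p = 0.000337) and *Rps25* (0.48 ± 0.10, SE, adjusted p = 0.000362) followed. Among the copies *Rpl22l1* and *Rpl39l* were called, *Rpl22l1* with a log2 fold change of 0.73. In WT the day 14 libraries were above those of day 8 without overlap for 42 of 87 genes (28.4% of all genes), and in Het for 45 (19.4% of all genes).

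From day 14 to day 21, averaged over genotypes, 5 of 87 RP genes fell and none rose. Falls were about as frequent among all genes (5.95% called lower, 12.2% higher). Medians were −0.14 for RP genes and 0.06 for all genes. The mean summed RQ at day 21 was 1.01 times that at day 14 in WT and 0.83 times in Het, all libraries included. In Het replicates 1 to 4 the summed RQ went from 98.5, 154.7, 111.1 and 111.0 to 111.9, 89.3, 95.2 and 98.7. Replicate 1 rose, and the fall was largest in replicate 2, the library apart at day 14. In WT replicates 1 and 4 rose (90.4 to 103.0 and 85.9 to 86.1). WT replicates 2 and 3 fell (88.1 to 81.7 and 88.9 to 84.6). Called lower were *Rpl10a* (−0.24 ± 0.07, SE, adjusted p = 0.0162), *Rpl27* (−0.24 ± 0.06, SE, adjusted p = 0.0119) and *Rpl8* (−0.19 ± 0.05, SE, adjusted p = 0.0153). So were *Rps2* (−0.19 ± 0.06, SE, adjusted p = 0.0352) and the copy *Rpl7l1* (−0.16 ± 0.05, SE, adjusted p = 0.0241). *Rpl10a* went from 0.840, 0.778, 0.774 and 0.750 at day 14 to 0.840, 0.695, 0.699 and 0.704 at day 21 in WT and from 0.992, 1.30, 0.985 and 0.977 to 0.908, 0.760, 0.794 and 0.807 in Het. All Het libraries of day 21 were below those of day 14, and in WT this held within replicates 2 to 4. With TMM 14 fell (12.3% of all genes). The count was 65 without replicate 1 and 0 without all of replicate 2, 3 or 4. It was 17 without Het day 14 replicate 1, 10 without replicate 1 of either genotype at day 21, and 3 without WT day 21 replicate 4 or Het day 21 replicate 2. Shares of all genes called were not taken for these fits. In the same interval 36 of 50 ribosome biogenesis genes fell and 1 rose.

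The 12 copy genes ranged from a sizeable part of the level of the parent gene to no count at all. By the GENCODE M21 annotation (GRCm38) 6 of them, *Rpl32l*, *Rpl6l*, *Rps12l1*, *Rps3a2*, *Rps3a3* and *Rps4l*, are processed pseudogenes, of which *Rps4l* is annotated as transcribed. Per length of merged exons, *Rpl22l1* stood at 78.5% of *Rpl22*, while its count was 34.5% to 70.7% of that of *Rpl22* in single libraries. Also per length, *Rps27l* stood at 37.1% of *Rps27*, *Rpl39l* at 13.7% of *Rpl39*, *Rps4l* at 10.01% of *Rps4x* and *Rpl7l1* at 7.87% of *Rpl7*. *Rps3a2*, *Rps3a3*, *Rpl6l* and *Rpl32l* were at 0.259% to 1.12% of their parents, *Rps12l1* at 0.0539% of *Rps12* and *Rpl3l* at 0.00801% of *Rpl3*. How reads matching several genes were counted is not given in the sources used here, so reads of these copies and their parents may have been split.

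*Rpl39l*, best known from germ cells, was the copy that rose with its family. Its RQ at day 14 was 0.0729, 0.0577, 0.0563 and 0.0561 in the WT libraries against 0.0717, 0.105, 0.0871 and 0.0827 in the Het libraries, where the WT library of replicate 1 stood above the Het one of that number. At day 21 it was 0.0720, 0.0532, 0.0511 and 0.0512 (WT) and 0.0911, 0.0633, 0.0689 and 0.0653 (Het), higher in Het in each pair. Over both days it had the largest log2 fold change of all RP genes (0.43 ± 0.09, SE, adjusted p = 0.00489).

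*Rpl22l1* moved with time rather than with a called genotype effect. It rose from 0.171, 0.220, 0.221 and 0.182 at day 8 to 0.277, 0.287, 0.305 and 0.300 at day 14 in WT (0.73 ± 0.15, SE, adjusted p = 0.000315, averaged over genotypes). In Het it was 0.187, 0.212, 0.177 and 0.175 at day 8 and 0.155, 0.450, 0.414 and 0.389 at day 14, so that replicate 1 stayed low while the others were above every WT library. Its Het effect over days 14 and 21 was not called (0.10 ± 0.15, SE, adjusted p = 0.704). *Rps27l*, a p53 target, had 0.193, 0.172, 0.167 and 0.179 in the WT libraries against 0.151, 0.275, 0.216 and 0.212 in the Het libraries at day 14, with replicate 1 of Het below all WT libraries, and was called in neither comparison. *Rps4l* had 0.144, 0.0998, 0.104 and 0.111 (WT) and 0.132, 0.104, 0.103 and 0.115 (Het) at day 14 (−0.04 ± 0.11, SE, adjusted p = 0.868 over both days), and *Rpl7l1*, whose product acts in ribosome assembly, had 0.217, 0.183, 0.179 and 0.185 (WT) and 0.203, 0.205, 0.205 and 0.203 (Het). For *Rpl7l1* the block moved the adjusted p over both days from 0.108 to 0.0425, at a log2 fold change of 0.12 ± 0.05 (SE).

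The near-silent copies differed by replicate number. *Rpl32l* had 77 to 129 counts in the 6 libraries of replicate 1, the shallowest, and 1 to 13 in the other 18. As a percent of the count of *Rpl32*, this was 0.702% to 0.929% against 0.00409% to 0.0519%. *Rps3a2* stood at 1.08% to 1.64% of *Rps3a1* in replicate 1 and at 0.199% to 0.397% elsewhere, and *Rps3a3* and *Rpl6l* differed in the same way. None of these copies was called between genotypes. With the block, *Rps3a2*, *Rps3a3*, *Rpl6l* and *Rpl32l* were called higher at day 14 than at day 8 (adjusted p = 0.00504 to 0.0308 by edgeR), and without replicate 1 *Rpl6l* and *Rps3a2* had lower rather than higher values at day 21 than at day 14.

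**Figure D5:**
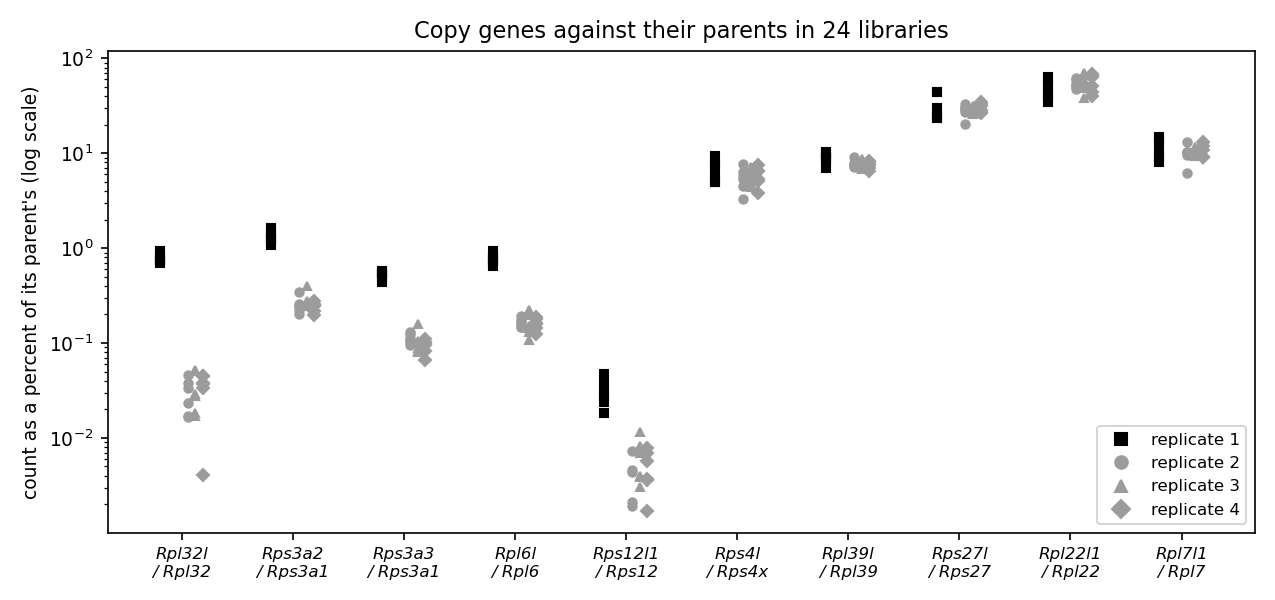
Count of 10 copy genes as a percent of the count of the parent gene in the same library, on a log scale, with black squares for replicate 1 and grey symbols for replicates 2 to 4. The 5 copies at the left lie higher in all 6 libraries of replicate 1 than in the other 18, for *Rpl32l* at 0.702% to 0.929% against 0.00409% to 0.0519%, and the 5 at the right overlap. The 1 library with no *Rps12l1* count is not drawn.

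The start of the RNA was set beside the size of the change, as a description. Over days 14 and 21, the 13 plain-symbol genes with a pyrimidine run at the RefSeq start had a median log2 fold change of 0.28 (0.15 to 0.38), and 10 were called. The 44 without such a run had a median of 0.30 (0.21 to 0.39), and 35 were called. The split follows the annotated start, so that *Rpl13a*, whose run begins 2 bases downstream, counts as without it. It therefore cannot separate TOP mRNAs from others. In Het against WT at day 14 the medians were 0.41 with the run and 0.42 without it. There 4 of the 13 and 24 of the 44 genes were called, and why the calls differ was not tested. For day 14 against day 8 the medians were 0.34 and 0.34. Exons of 39 of the 89 genes overlap an exon of another gene, in 20 of them on the other strand, and strandedness of the counting is not given, so their counts may include reads of a neighbour. *Rpl35* is one of these, with *Arpc5l* and *Wdr38* on the other strand.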

How the data were processed

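RNA sequencing was made from 24 libraries of primary OBs, and replicates are the numbered samples of the labels. The deposited values were raw counts per gene: per the labels, the authors trimmed reads with cutadapt 2.5, aligned them to mm10 with STAR 2.73a and counted them with featureCounts 1.6.4. The annotation release, strand setting and handling of multi-mapped reads are not given in the sources used here. Libraries were polyA-selected without molecular identifiers.

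Counts were fitted in edgeR 4.0.16 (R 4.3.3) with the quasi-likelihood test, 6 group means over all 24 libraries, library sizes set by the geometric mean of *Actg1*, *Actb*, *Mrfap1* and *Sdha*, and filterByExpr (count minimum 10), which left 20287 genes. P-values were adjusted by Benjamini-Hochberg over all of these in each of 8 comparisons. Genes and lists were chosen with earlier results of these data known. Genes named in the text are a list of RP genes with known roles or copies and, per comparison, the 5 called RP genes with the largest change. Some genes that this rule or the counts include are not reported here by name. Depth was 17140202 to 59734231 counts (median 48340136). The script was tested on simulated data.

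Same-numbered WT and Het libraries deviated together from their group means (correlation 0.293 to 0.765 in 12 pairs, median 0.561). In 36 pairs of different numbers it was −0.695 to 0.590, and every negative value came from a pair with replicate 1. Other pairs of different numbers could match same-numbered ones (day 8, WT replicate 3: 0.590 with Het replicate 2, 0.561 with Het replicate 3). These values set replicate 1 apart and do not settle pairing among replicates 2 to 4. For same-numbered pairs of replicates 2 to 4 alone the correlation was 0.0137 to 0.406. The main fit therefore has no pairing term, and the replicate number is a block in an alternative fit. The study describes 2 experiments with different litters, plating densities and oxygen, and the labels do not say which replicate belongs to which. The alternatives were TMM, DESeq2 size factors and total count as scales, the DESeq2 1.42.0 Wald test, other filters, the replicate block, replicate 1 as a covariate, and leaving out libraries.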

Additional observations from a re-analysis of the deposited data

Results flagged for a closer look

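Of 258 sets of 4 libraries, from each RP gene named, the summed RQ and the RP share of counts in each group, 57 held a library that stood far from the other 3 (Dixon's test at 95%), where chance gives about 1 in 20. In all but 1 of them the library apart was the highest. Replicate 1 was apart for *Rpl32l*, a copy, with an RQ of 0.00660 in WT day 8, 0.00733 in Het day 8, 0.00923 in WT day 14, 0.00952 in Het day 14, 0.0122 in WT day 21 and 0.0125 in Het day 21. Replicate 1 was apart for *Rpl6l*, a copy, with an RQ of 0.00703 in WT day 8, 0.00797 in Het day 8, 0.00941 in WT day 14, 0.00918 in Het day 14, 0.0126 in WT day 21 and 0.0123 in Het day 21. Replicate 1 was apart for *Rps3a2*, a copy, with an RQ of 0.0134 in WT day 8, 0.0168 in Het day 8, 0.0207 in WT day 14, 0.0302 in WT day 21 and 0.0375 in Het day 21. Replicate 1 was apart for *Rps3a3*, a copy, with an RQ of 0.00549 in WT day 8, 0.00733 in Het day 8, 0.00822 in WT day 14, 0.0118 in WT day 21 and 0.0126 in Het day 21. Replicate 1 was apart for *Rps12l1*, a copy, with an RQ of 0.000569 in Het day 8, 0.000914 in WT day 14 and 0.000567 in Het day 14.

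WT day 8 replicate 3 was apart with an RQ of 1.37 for *Rps3a1* and 0.656 for *Rps6*. Het day 8 replicate 1 was apart with an RQ of 1.45 for *Rpl10* and 0.0653 for *Rpl39l*. Het day 8 replicate 3 was apart with an RQ of 0.694 for *Rps6*. WT day 14 replicate 1 was apart with an RQ of 1.14 for *Rpl32*, 0.575 for *Rpl35*, 0.0729 for *Rpl39l*, 0.217 for *Rpl7l1* and 0.639 for *Rps27*. WT day 14 replicate 2 was apart with an RQ of 1.87 for *Rps12* (the lowest). Het day 14 replicate 2 was apart with an RQ of 1.30 for *Rpl10a*, 1.89 for *Rpl32*, 1.09 for *Rpl35*, 1.88 for *Rpl6*, 3.31 for *Rpl7*, 4.44 for *Rplp1*, 1.22 for *Rps28*, 2.80 for *Rps3a1*, 3.16 for *Rps4x*, 1.22 for *Rps6* and 4.69 for *Rpsa*. WT day 21 replicate 1 was apart with an RQ of 0.840 for *Rpl10a*, 0.577 for *Rpl22*, 1.31 for *Rpl32*, 0.0720 for *Rpl39l*, 4.16 for *Rplp0*, 3.48 for *Rplp1*, 0.799 for *Rps28*, 0.121 for *Rps4l* and 3.33 for *Rpsa*. Het day 21 replicate 1 was apart with an RQ of 0.134 for *Rps4l*.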

How the results depend on the processing

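The direction of the median RP change held under every alternative for Het against WT at each day and over days 14 and 21, while the number of genes called did not. Shares of all genes called were taken for the main fit and, in some comparisons, for TMM and the replicate block. Counts under the other settings therefore describe RP genes alone and cannot be set against all genes. At day 14, 37 genes became 64 with TMM, 70 with DESeq2 size factors, 79 on total counts, 72 with the DESeq2 Wald test, 61 with the replicate block, 76 with TMM and the block, 68 with replicate 1 as a covariate, 80 without replicate 1 and Het day 14 replicate 2, 4 with no filter beyond 1 count and 0 with the compared libraries alone, and 0 to 81 with single libraries or replicate numbers left out. Over both days leaving out gave 0 to 81. At day 8 the count of 0 became 5 without replicate 1 and Het day 14 replicate 2, and 0 to 1 with libraries left out. At day 21 it became 1 with DESeq2 size factors, 2 on total counts, 1 with TMM and the block, 35 without replicate 1 and Het day 14 replicate 2, and 0 to 5 with libraries left out. For the effect over days 14 and 21 less that at day 8 it became 5 and 0 to 2. For day 14 against day 8, 77 higher became 28 with TMM, 38 with DESeq2 size factors, 37 with TMM and the block (1 lower) and 7 on total counts (4 lower). For day 21 against day 14, 5 lower became 14 with TMM, 12 with DESeq2 size factors, 18 on total counts, 9 with the Wald test, 2 with no filter, 8 with replicate 1 as a covariate, 16 with TMM and the block, 57 without replicate 1 and Het day 14 replicate 2, and 0 to 65 with libraries left out. The causes were not tested.

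On total counts, day 14 against day 8 turned to −0.028 for *Rpl22*, −0.077 for *Rpl27*, −0.18 for *Rpl7l1*, −0.081 for *Rpl8*, −0.074 for *Rplp2*, −0.014 for *Rps19*, −0.20 for *Rps2* and −0.26 for *Rps4l* (log2), and with TMM and the block to −0.14 for *Rps4l*. Day 21 against day 14 turned to −0.49 for *Rpl6l* and −0.601 for *Rps3a2* without replicate 1, and to −0.44 for each without replicate 1 and Het day 14 replicate 2. With single libraries or replicate numbers left out it ranged from −0.68 to 0.46 for *Rpl6l* and from −0.66 to 0.64 for *Rps3a2*. Over days 14 and 21 the block also moved the calls of *Rpl9*, *Rpl36* and *Rpl41*, and for day 21 against day 14 that of *Rps4l*. At day 14 it added 24 calls and removed none, and for day 14 against day 8 it added the 4 copies named with the results. In the other comparisons it changed no call of an RP gene. TMM with the block, and leaving out replicate 1 together with Het day 14 replicate 2, were chosen after seeing the data.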
